A study of Mus musculus with 96 samples.

Results

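Mice that lack the circadian clock still live in a light-dark cycle, and the comparison described here asks which liver transcripts differed between day and night in 2 clock knockouts that had food at all times. It took 16 of the 96 liver mRNA libraries of the series: knockouts (KO) of the Bmal1 line and of the Cry line, both fed ad libitum (AL), with 8 libraries of the day (zeitgeber time, ZT, in h after lights on: ZT4 and ZT8) against 8 of the night (ZT16 and ZT20). Mice were 12 to 16 weeks old. The Bmal1 KO lacks the clock's activator and the Cry KO lacks both repressors, CRY1 and CRY2. Each line gave 2 numbered replicate series with 1 library per time, series 1 and 8 of Bmal1 KO AL and series 1 and 2 of Cry KO AL. The labels do not say whether a library is 1 animal or a pool, whether a series marks a litter or a day, or in which cells the genes were deleted, so the p-values reflect the spread of these libraries, which may be technical. For comparison, 2 other sets of 16 libraries at the same 4 times were used, wild types (WT) of both lines fed AL and knockouts of both lines that ate only at night (restricted feeding, RF), and the ZT0 and ZT12 libraries bring the knockouts fed AL to 24.

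In a working liver clock BMAL1, with CLOCK, drives the period and cryptochrome genes, whose proteins repress it, so that many transcripts rise and fall daily. Other daily signals reach the liver without its clock, among them feeding, hormones and body temperature. Food intake acts on sterol and fatty acid synthesis through insulin and the SREBP factors, and body temperature acts on heat shock genes through HSF1 and on cold-inducible RNA binding proteins such as CIRBP.

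Total counts of the 16 libraries ran from 2694543 to 28440575, with a median of 23903500. A level of 5 CPM (counts scaled to a common library size, per 1e6) corresponded to 120 counts at the median depth and to 13.5 counts in the shallowest library, Cry KO AL series 2 at ZT20. Summed hepatocyte markers gave 37100 to 57100 CPM in the Bmal1 line and, in the Cry line, 61800 to 133000 CPM. Cry KO AL series 2 stood apart from the other series: mitochondrial transcripts took 7.92 to 12.4% of its counts, against 4.37 to 6.95% in the other 12 libraries, and its 8 endothelial markers summed to 163 to 246 CPM, against 517 to 579 CPM in Cry KO AL series 1. By day these markers gave 410 to 580 CPM in the Bmal1 knockouts and 163 to 522 CPM in the Cry knockouts, and by night 374 to 482 and 224 to 579 CPM. None of the 10 marker lists other than that of adipocytes had a member called between night and day; the 6 erythroid markers gave 73.6 to 174 CPM by day and 174 to 214 CPM by night in the Bmal1 knockouts, and 197 to 354 CPM by day and 91.5 to 174 CPM by night in the Cry knockouts. In whole liver, fewer cells of a type and less RNA per cell cannot be told apart. The part of these markers in the results was not tested. Arntl, which encodes BMAL1, was counted at 10.5 to 15 CPM in Bmal1 KO AL, against 1.15 to 34.7 CPM in Bmal1 WT AL, and Cry1 at 6.07 to 9.49 CPM in Cry KO AL, against 5.94 to 50.8 CPM in Cry WT AL. Counts per gene do not show whether the deleted part was read, so these levels do not check the labels; both genes had a narrower range than in the wild type.

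Few genes passed the threshold between day and night in each knockout line with edgeR, which does not show that the others were alike. Each gene was tested with edgeR's quasi-likelihood test in 1 fit of the 16 libraries, with the series as blocks and a night effect for each line; a gene was called at a Benjamini-Hochberg adjusted p under 0.05 over 15167 genes, and log2 folds are night minus day, with their SE. In Bmal1 KO AL 12 genes rose at night and 10 fell (0.0791% and 0.0659% of those tested), and in Cry KO AL 0 rose and 1, Spaca6, fell (0% and 0.00659%). No gene was called in both lines (0% higher and 0% lower) and 0 were called for a difference between the lines (0%), where 899 had an unadjusted p under 0.05. Unadjusted p-values under 0.05 were reached by 1628 genes in Bmal1 KO AL and 1922 in Cry KO AL; 169 reached it in both lines with higher levels at night, 186 with lower levels and 30 in opposite directions. DESeq2, on the same design, called 244 genes in Bmal1 KO AL and 272 in Cry KO AL. It called 9 genes higher and 15 lower in both lines separately. The 9 were Aacs, Azin1, Polr3g, P2ry1, Mdm1, Zbtb21, Hist2h3c2, Gm14403 and Gm14327. Among the 15 were Cirbp, Fbxo21, Sesn2, Atg2a, Fzd6, Cyp3a59, Cyp3a25 and Cyp2j9.

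On the average of both lines, where the 4 series bear on each gene together, edgeR called 84 genes higher and 133 lower at night (0.554% and 0.877%). The 2 lines had the same sign for 216 of these 217 genes. The genes described below are the 201 that also had 1 sign in all 4 series, 78 higher and 123 lower (0.514% and 0.811%); all 24 genes that DESeq2 called in both lines were among the 217. Their absolute average log2 folds ran from 0.228, with a median of 0.539, and exceeded 1 in 12 of the 78 and 15 of the 123. Day and night libraries did not overlap in either line for 10 of the 78 and 24 of the 123, and for 12 and 30 of all genes tested (0.0791% and 0.198%). These 201 genes were chosen by this contrast, so their folds in it are a description. The plot of the night effect in one line against the other places the 78 in the upper right quadrant and the 123 in the lower left.

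**Figure D1:**
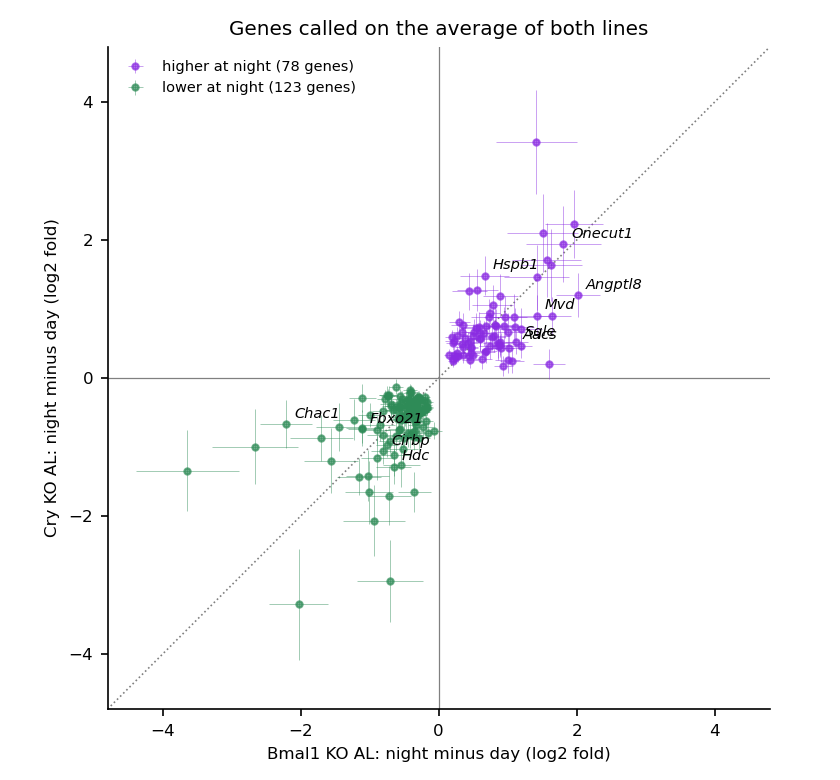
Night minus day log2 fold in Bmal1 KO AL (x axis) and Cry KO AL (y axis) for the 201 genes called on the average of both lines with 1 sign in all 4 series; points are genes, bars are SE and the dotted line marks equal folds. The sign was the same in both lines by the way the genes were chosen, and Angptl8 lies at 2.02 and 1.21.

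The number called rested on series 1 of each line. It was 217 with all 16 libraries, 0 without Bmal1 KO AL series 1, 0 without Cry KO AL series 1, 123 without Cry KO AL series 2 and 197 without Bmal1 KO AL series 8. Leaving out 1 library of Bmal1 KO AL series 1 gave 90 (ZT4), 48 (ZT8), 67 (ZT16) or 43 (ZT20). In Bmal1 KO AL series 8 it gave 251 (ZT4), 126 (ZT8), 129 (ZT16) or 147 (ZT20). In Cry KO AL it gave 52 (ZT4), 33 (ZT8), 48 (ZT16) or 152 (ZT20) from series 1. From Cry KO AL series 2 it gave 164 (ZT4), 106 (ZT8), 114 (ZT16) or 286 (ZT20). DESeq2 called 776 genes on the average, and the fit with no replicate block called 19.

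The same genes were then read in the 2 sets of libraries that had no part in choosing them. In the knockouts under RF, 76 of the 78 genes were higher at night and 63 of them were called, and all 123 were lower at night, 100 of them called; of all genes in that fit of 64 libraries, 9.61% were called higher and 8.6% lower. In wild types fed AL, 74 of the 78 were higher with 57 called, and 118 of the 123 were lower with 85 called, against 9.23% and 9.54% of all genes. None of the 201 was called in the opposite direction in either set. The median log2 fold of the 78 was 0.676 in KO RF and 0.604 in WT AL, and that of the 123 was -0.563 and -0.485. In the test of the difference of the night effect, KO AL minus WT AL, 44 genes were called with a positive and 61 with a negative difference (0.26% and 0.361%), and 2 of these, Stard4 and 2810414N06Rik, were among the 201. The KO AL libraries of this test also chose the 201, so for these genes the difference is a description. No gene was called for KO RF minus KO AL (0%), where 1514 had an unadjusted p under 0.05; a difference that misses the threshold does not show that the regimens act alike.

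**Figure D2:**
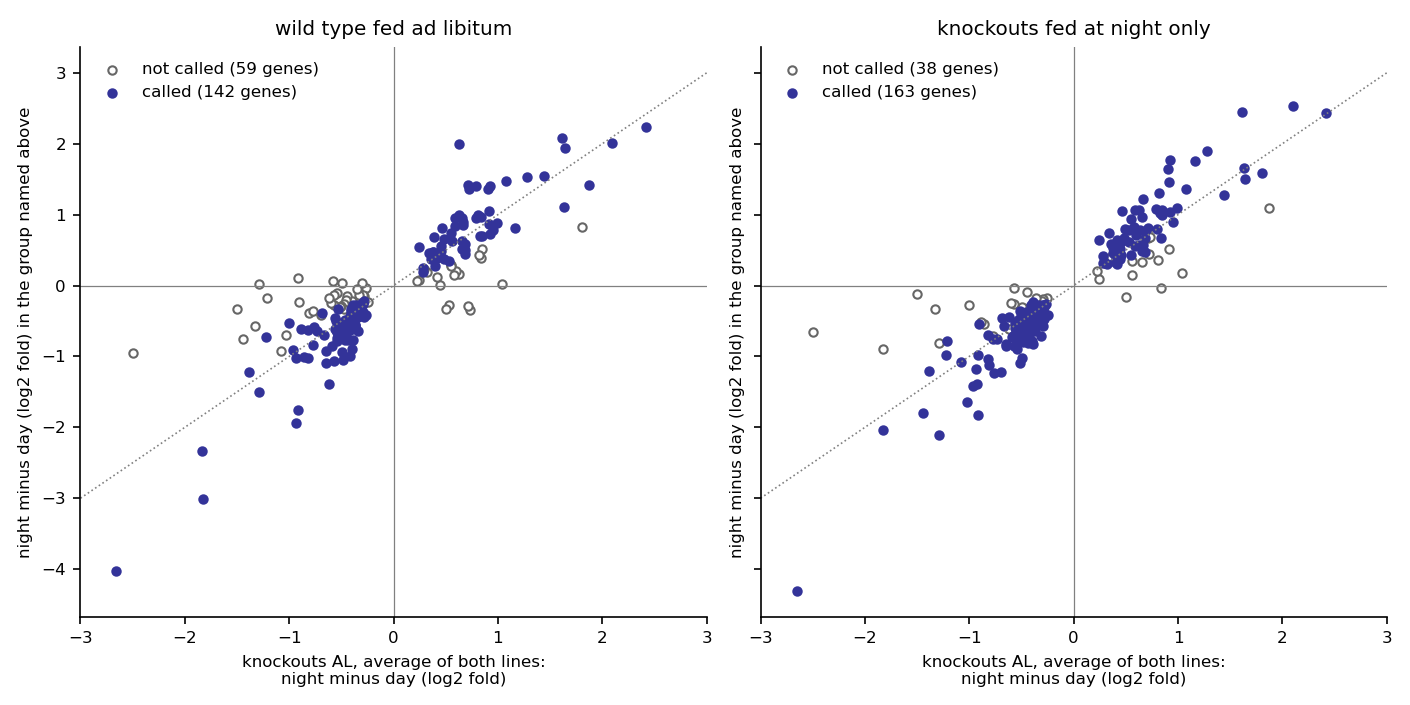
Night minus day log2 fold of the 201 genes in knockouts fed AL (x axis, average of both lines) against the fold in wild types fed AL (left) and in knockouts fed at night only (right); filled points were called in the group on the y axis and the dotted line marks equal folds. Of the 201 genes, 142 and 163 were called there, all of them in the direction seen in knockouts fed AL.

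Cholesterol synthesis was the list with the most members called. Of its 24 members, 12 were called higher at night on the average and 0 lower, against 0.554% and 0.877% of all genes. Higher levels at night in both lines were found for 23 members, against 28.8% of all genes. The median log2 fold of the list was 0.752 in Bmal1 KO AL and 0.383 in Cry KO AL, against -0.0007 and -0.0168 for all genes. By series it was 0.712 and 0.898 in Bmal1 KO AL series 1 and 8, 0.654 in Cry KO AL series 1 and 0.0801 in Cry KO AL series 2. Those described here are Mvd, Idi1 and Fdps in the mevalonate and isoprenoid steps, Sqle and Lss from squalene to lanosterol, Msmo1 and Hsd17b7 in the later steps, Stard4 in sterol transport, and Insig1, which restrains SREBP.

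Mvd, mevalonate diphosphate decarboxylase, stood by day at 23.1, 15.7, 21.6 and 21.1 CPM in Bmal1 KO AL, with the ZT4 and ZT8 libraries of series 1 first and those of the other series after them, and by night at 59, 62.1, 63.6 and 32.2 CPM, with ZT16 and ZT20 in the same order. In Cry KO AL the values were 8.85, 8.58, 11.8 and 18.7 CPM by day and 31.4, 14.3, 16.3 and 26.2 CPM by night. The 4 night libraries of Bmal1 KO AL lay above all 4 of the day, and in Cry KO AL the ZT8 library of series 2 lay above 2 of the 4 night libraries. Its gene lies at chr8:122433601-122443422 on the minus strand (GRCm38). The fold was 2.68 in Bmal1 KO AL and 1.87 in Cry KO AL, and the average log2 fold 1.16 ± 0.20 (adjusted p = 0.017, edgeR).

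Sqle, squalene epoxidase, read 104, 70.6, 68.2 and 59.9 CPM by day and 179, 211, 155 and 115 CPM by night in Bmal1 KO AL. In Cry KO AL it read 63.8, 43.6, 59.5 and 72.7 CPM by day and 105, 76.3, 75 and 88.7 CPM by night. Day and night were apart in both lines. In Bmal1 KO AL the log2 fold was 1.13 ± 0.16 (adjusted p = 0.0126, edgeR), and in Cry KO AL it was 0.52 ± 0.17 (adjusted p = 0.209, edgeR). The difference between the lines was not called (adjusted p = 0.733, edgeR).

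Insig1 was apart in both lines and had an average log2 fold of 0.68 ± 0.14, and Msmo1, Idi1 and Lss had 0.73, 0.71 and 0.68. Hsd17b7 and Fdps, at 0.62 and 0.95, were called on the average but did not keep 1 sign in all 4 series. Cry KO AL series 2, the series that stands apart above, was the one with the opposite sign for both.

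Stard4, a sterol carrier, was called for a difference of its night effect from that of the wild types. The KO AL libraries of that test had also chosen Stard4, so the size of its difference is not free of that choice. It read 133, 86.6, 109 and 100 CPM by day and 182, 199, 159 and 146 CPM by night in Bmal1 KO AL and 155, 156, 127 and 170 CPM by day and 251, 240, 169 and 156 CPM by night in Cry KO AL, with an average log2 fold of 0.53 ± 0.10. For wild types fed AL the means were 194 ± 70.1 CPM by day and 162 ± 9.55 CPM by night in the Bmal1 line and 197 ± 54.5 and 160 ± 20.9 CPM in the Cry line (SD, n = 4). The wild-type log2 fold was -0.27 ± 0.14, and the difference, KO AL minus WT AL, was 0.81 ± 0.20 (adjusted p = 0.0404, edgeR). Of the 24 members, 6 were called higher at night in WT AL and 15 in KO RF, against 9.23% and 9.61% of all genes. The list medians were 0.111 and 0.639. Hmgcs1, Msmo1 and Idi1 had log2 folds of -0.36, -0.34 and -0.28 in WT AL against 0.79, 0.73 and 0.71 on the average of KO AL; for these 3 the difference was not called (adjusted p = 0.3, 0.214 and 0.225, edgeR).

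Promoters of the called sterol genes are shown because the letters of the NF-Y box, ATTGG on either strand, occur in all of those that could be read. RefSeq promoters (GRCm38.p6; 250 bases before to 50 after the start site) were matched by symbol for 16 of the 24 members, and 16 of 16 held the box, against 42.5% of the 10925 tested genes with a promoter. The core of a sterol element, CACCCCAC, was found in 1 of the 16 (6.25%, against 3.88%). The 250 bases before the start sites of Mvd (chr8:122443423-122443672, minus strand), Idi1 (chr13:8885356-8885605, plus strand), Msmo1 (chr8:64733579-64733828, minus strand) and Insig1 (chr5:28071162-28071411, plus strand) follow, 5′ to 3′ on the gene's strand, with the box in capitals.
Mvd: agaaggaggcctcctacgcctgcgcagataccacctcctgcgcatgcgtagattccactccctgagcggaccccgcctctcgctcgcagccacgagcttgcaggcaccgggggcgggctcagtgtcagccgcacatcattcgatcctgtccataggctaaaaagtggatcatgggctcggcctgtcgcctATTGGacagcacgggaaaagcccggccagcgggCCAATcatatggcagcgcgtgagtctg
Idi1: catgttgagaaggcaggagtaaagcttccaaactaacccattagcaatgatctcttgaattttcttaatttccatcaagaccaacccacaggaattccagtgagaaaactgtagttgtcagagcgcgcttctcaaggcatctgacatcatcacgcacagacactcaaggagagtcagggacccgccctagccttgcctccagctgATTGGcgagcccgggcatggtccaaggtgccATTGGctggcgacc
Msmo1: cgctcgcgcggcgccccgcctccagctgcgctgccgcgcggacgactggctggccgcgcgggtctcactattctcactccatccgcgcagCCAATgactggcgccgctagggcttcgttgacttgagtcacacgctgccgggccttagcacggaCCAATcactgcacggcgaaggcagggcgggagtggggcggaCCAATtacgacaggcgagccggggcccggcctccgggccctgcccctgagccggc
Insig1: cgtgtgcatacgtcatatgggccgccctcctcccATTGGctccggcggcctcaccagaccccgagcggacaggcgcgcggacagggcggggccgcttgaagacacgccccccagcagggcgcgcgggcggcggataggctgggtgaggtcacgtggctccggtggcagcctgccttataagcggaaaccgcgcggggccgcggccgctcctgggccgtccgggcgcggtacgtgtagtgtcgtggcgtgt
Counting both strands, Mvd holds 2 boxes, Idi1 2, Msmo1 3 and Insig1 1. A match of letters is a description, not a binding site. Over the 201 genes 47.3% of the 55 matched genes that were higher at night and 49.5% of the 97 that were lower held it.

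Heat shock chaperones, the protein-folding factors driven by HSF1, were higher at night in both lines for 22 of 22 members, against 28.8% of all genes. On the average 5 were called higher, Hspb1, Hsp90aa1, Stip1, Fkbp4 and Cacybp, and 0 lower, against 0.554% and 0.877% of all genes. The list's median log2 fold was 0.446 in Bmal1 KO AL and 0.574 in Cry KO AL. By series it was 0.631 and 0.168 in Bmal1 KO AL series 1 and 8, and 0.446 and 0.475 in Cry KO AL series 1 and 2. In WT AL and in KO RF 18 members each were called higher, against 9.23% and 9.61% of all genes, with medians of 0.861 and 0.972. Hsp90aa1 is the inducible cytosolic HSP90, Stip1 and Fkbp4 are its cochaperones, Hspb1 is a small heat shock protein, and Cacybp is the calcyclin binding protein.

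Hsp90aa1 read 146, 110, 199 and 92.6 CPM by day and 326, 330, 184 and 147 CPM by night in Bmal1 KO AL. In Cry KO AL it read 194, 142, 183 and 159 CPM by day and 410, 228, 534 and 265 CPM by night. Every night library of Cry KO AL was above its day libraries, with the highest at ZT16 in both series, while in Bmal1 KO AL the day and night libraries were apart in series 1 and overlapped in series 8. The fold was 1.72 and 2.09 in the 2 lines and the average log2 fold 0.92 ± 0.21 (adjusted p = 0.0437, edgeR). Hspb1 read 1.65, 1.23, 3.39 and 1.5 CPM by day and 2.77, 4.2, 2.95 and 2.03 CPM by night in Bmal1 KO AL, and 19, 10.6, 25.3 and 16.9 CPM by day and 33.2, 38.6, 91.3 and 42 CPM by night in Cry KO AL. Its level in Cry KO AL was above that in Bmal1 KO AL in every one of these libraries, and its average log2 fold was 1.08 ± 0.23.

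Among the members not called on the average was the stress-inducible Hspa1b, at 4.98, 6.63, 4.13 and 11.8 CPM by day and 44.1, 2.01, 8.79 and 6.91 CPM by night in Bmal1 KO AL and 7.41, 5.46, 6.19 and 6.73 CPM by day and 10.4, 2.79, 68.8 and 3.75 CPM by night in Cry KO AL. The ZT16 libraries of Bmal1 KO AL series 1 and Cry KO AL series 2 were the high ones. Hsph1 showed the same 2 libraries and Cry KO AL series 1 at ZT16, at 145, 246 and 149 CPM, against 32.7 to 69.1 CPM in the other 13. Hspa9 and Hspd1, the mitochondrial chaperones, had average log2 folds of 0.02 and 0.14.

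Of the 17 chaperones matched to a RefSeq promoter, 10 held the letters of a pair of heat shock half-sites, GAANNTTC on either strand (58.8%, against 7.18% of tested genes with a promoter). The 250 bases before the start sites of Hspb1 (chr5:135887669-135887918, plus strand) and Fkbp4 (chr6:128438657-128438906, minus strand) are shown as the called members with such a pair, which is in capitals.
Hspb1: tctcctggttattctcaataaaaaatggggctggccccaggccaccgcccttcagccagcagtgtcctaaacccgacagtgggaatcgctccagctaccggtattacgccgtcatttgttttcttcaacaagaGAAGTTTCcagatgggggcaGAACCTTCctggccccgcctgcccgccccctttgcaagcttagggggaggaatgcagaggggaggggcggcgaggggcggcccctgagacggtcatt
Fkbp4: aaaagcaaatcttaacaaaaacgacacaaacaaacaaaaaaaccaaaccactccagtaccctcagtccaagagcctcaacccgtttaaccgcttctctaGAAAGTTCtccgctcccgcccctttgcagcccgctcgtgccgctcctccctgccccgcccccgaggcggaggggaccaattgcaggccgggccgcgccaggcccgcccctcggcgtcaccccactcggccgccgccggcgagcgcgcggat
Hspb1 holds 2 pairs and Fkbp4 1. In the 250 bases of Stip1, which was also called, no pair was found, and the sterol gene Idi1 holds 1. Among the 201 genes the pair was found in 7.27% of those higher and 3.09% of those lower at night.

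**Figure D3:**
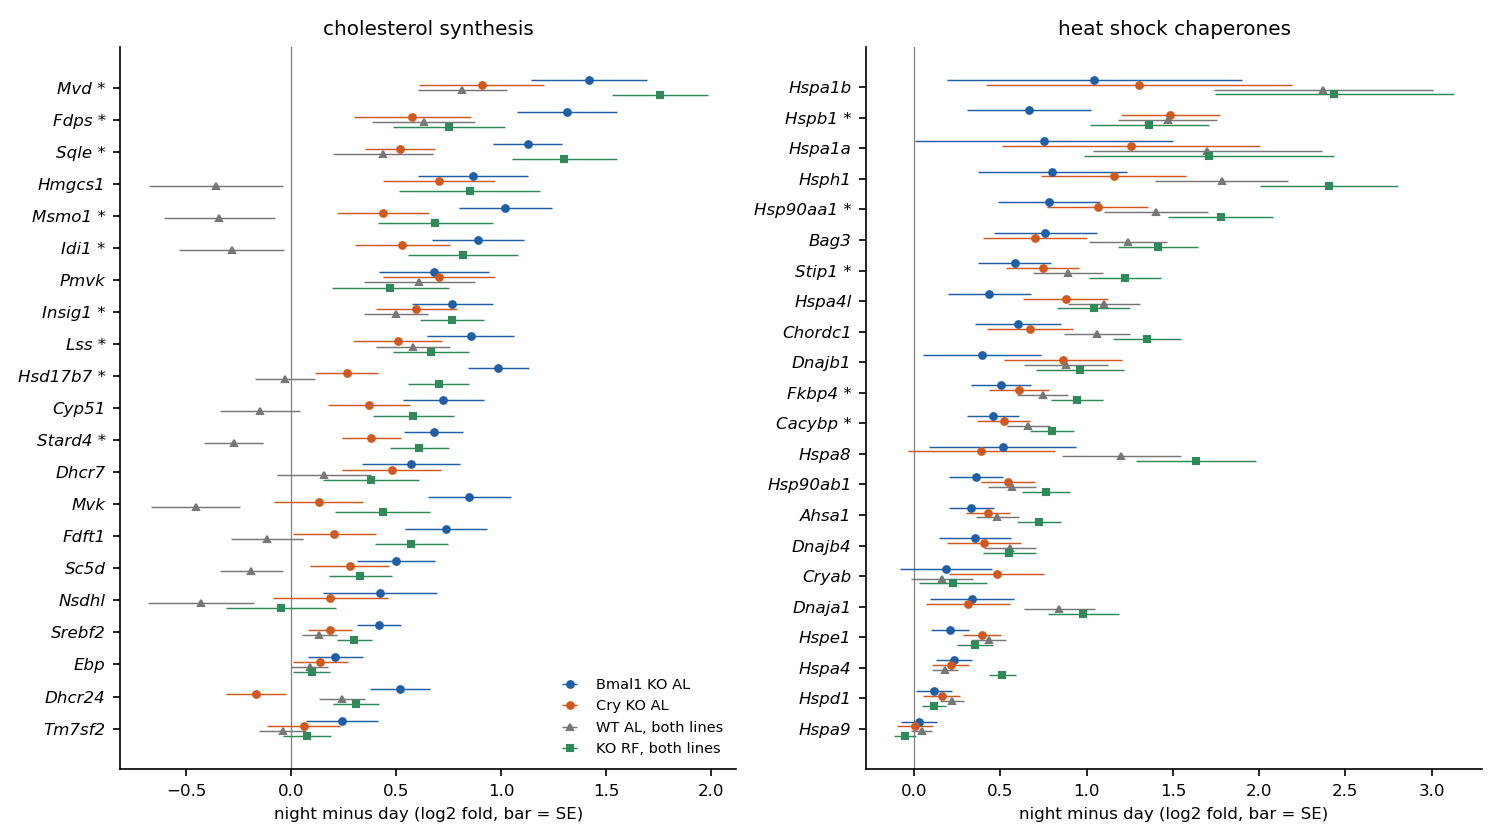
Night minus day log2 fold (x axis, bars are SE) of 21 members of the cholesterol synthesis list (left) and 22 heat shock chaperones (right) in Bmal1 KO AL, Cry KO AL, WT AL and KO RF; asterisks mark the 9 and 5 of these called on the average of the knockouts fed AL. The chaperones lie to the right of 0 in both knockouts, and Stard4 lies at -0.27 in WT AL against 0.61 in KO RF.

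Angptl8 (chr9:21835510-21837347, GRCm38) encodes a liver hormone that rises with feeding and restrains lipoprotein lipase. It read 19.7, 14.1, 19.9 and 20.7 CPM by day and 62.9, 90.8, 87.4 and 56.5 CPM by night in Bmal1 KO AL and 13.1, 14.6, 22.6 and 21.3 CPM by day and 47.8, 24.8, 68.8 and 13.3 CPM by night in Cry KO AL. All 4 night libraries of Bmal1 KO AL were above its day libraries; in Cry KO AL 3 of 4 were, and series 2 at ZT20, at 13.3 CPM, was below both day libraries of its own series. The fold was 4.05 and 2.31 and the average log2 fold 1.61 ± 0.23 (adjusted p = 0.00826, edgeR), and Bmal1 KO AL passed alone (adjusted p = 0.0249, against 0.141 in Cry KO AL, edgeR). Aacs, which activates acetoacetate for lipid synthesis, read 36.4, 22.3, 19.2 and 39.6 CPM by day and 95.9, 98.3, 91.8 and 80.3 CPM by night in Bmal1 KO AL and 98.2, 69.1, 49.4 and 84.1 CPM by day and 252, 146, 126 and 69.5 CPM by night in Cry KO AL, an average log2 fold of 1.27 ± 0.19. Its groups were apart in Bmal1 KO AL, and in Cry KO AL the ZT20 library of series 2 was within the range of the day. Mid1ip1, which promotes assembly of acetyl-CoA carboxylase, had 0.92 ± 0.20.

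Of the 18 lipogenesis genes tested, 2 were called higher, Acly and Elovl6, and 0 lower, against 0.554% and 0.877% of all genes. Acly, ATP citrate lyase, went in Bmal1 KO AL from 295 ± 88.5 CPM by day to 481 ± 102 CPM by night and in Cry KO AL from 226 ± 34.5 CPM by day to 481 ± 312 CPM by night (mean ± SD, n = 4), and its average log2 fold was 0.81 ± 0.19. The spread in the Cry night libraries came from series 1 at ZT16, at 891 CPM, and series 2 at ZT16, at 193 CPM. Fasn, with an average log2 fold of 0.90 ± 0.25, was not called (adjusted p = 0.0775, edgeR), and Scd1 and Srebf1 had -0.11 and 0.18. The list's median was 0.236 in Bmal1 KO AL and 0.263 in Cry KO AL, and by series it was -0.0685 and 0.535 in Bmal1 KO AL series 1 and 8 and 0.542 and 0.0911 in Cry KO AL series 1 and 2.

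Also higher at night were 2 hepatocyte transcription factors. Onecut1 read 19.1, 29.7, 3.06 and 9.46 CPM by day and 71.8, 54.5, 8.59 and 53.4 CPM by night in Bmal1 KO AL and 29.4, 14.9, 3.16 and 7.99 CPM by day and 68.5, 73.7, 46.1 and 5.83 CPM by night in Cry KO AL. The mean of each series was higher at night, from unlike levels, and the groups overlapped in both lines. The folds were 3.5 and 3.85 (average log2 fold 1.88 ± 0.39, adjusted p = 0.0328, edgeR). Foxa2 had an average log2 fold of 0.92 ± 0.21. P2ry1, a purinergic receptor, stood at 4.2, 3.95, 5.45 and 6.25 CPM by day and 8.04, 8.19, 8.21 and 7.89 CPM by night in Bmal1 KO AL and 5.04, 5.83, 4.37 and 5.41 CPM by day and 9.49, 11, 11.4 and 7.49 CPM by night in Cry KO AL. Its groups were apart in both lines (adjusted p = 0.00826, edgeR), while in KO RF it had a log2 fold of -0.04 ± 0.24 and in WT AL of 0.39 ± 0.23, neither called. Utp14b, a ribosome biogenesis factor, and the receptor adaptor Grb10 had average log2 folds of 0.83 ± 0.11 and 0.85 ± 0.19, and the inositol transporter Slc5a3 had 0.85 ± 0.18.

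Of the genes lower at night, Cirbp (chr10:80165985-80172786, GRCm38), the cold-inducible RNA binding protein, was among those with day and night apart in both lines. It read 33.1, 22, 32.9 and 24.1 CPM by day and 14.3, 15.2, 17.8 and 16.3 CPM by night in Bmal1 KO AL, and 22.7, 21.8, 28.8 and 25.9 CPM by day and 10.6, 14.4, 8.27 and 16.7 CPM by night in Cry KO AL. The night levels were 0.57 and 0.48 times those of the day, an average log2 fold of -0.93 ± 0.13 (adjusted p = 0.00826, edgeR). It also fell in WT AL (log2 fold -1.02 ± 0.20) and in KO RF (-1.18 ± 0.21). Of the 7 genes of the cold-inducible list it was the only one called, against 0.877% of all genes called lower. Lower levels at night in both lines were found for 6 (85.7%, against 32% of all genes). Rbm3, a relative of Cirbp, had 0.29 in Bmal1 KO AL and -0.40 in Cry KO AL.

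Fbxo21 (chr5:117976730-118010201, GRCm38), a subunit of a ubiquitin ligase, read 101, 93.3, 94.6 and 94.2 CPM by day and 32.4, 34.6, 49.6 and 65.8 CPM by night in Bmal1 KO AL. In Cry KO AL it read 116, 116, 112 and 120 CPM by day and 62, 88.8, 44.2 and 89.9 CPM by night. The day libraries were tightly grouped in both lines and all above the night, and the average log2 fold was -0.93 ± 0.14. In WT AL it was -1.93 ± 0.22, from 180 ± 75 to 45.6 ± 8.28 CPM in the Bmal1 line (SD, n = 4), and the difference was not called (adjusted p = 0.121, edgeR). Slc8b1, the mitochondrial sodium/calcium exchanger, had -0.92 ± 0.21, and Hdc, which makes histamine, -0.97 ± 0.18. Fzd6, a Wnt receptor, the Polycomb gene Cbx7, the centromere histone gene Cenpa and the host gene Mir22hg had -0.82, -0.76, -0.73 and -0.77. The P450 genes Cyp3a59 and Cyp2j9 had -0.86 ± 0.12 and -0.81 ± 0.12, with day and night apart in both lines. Cyp3a59 is one of several close copies, between which reads can be split. Of the 17 xenobiotic genes tested 1 was called lower, against 0.877% of all genes. It was Nr1i3, which encodes the nuclear receptor CAR (-0.58 ± 0.12).

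Sesn2, an inhibitor of mTORC1 induced by ATF4, read 6.92, 10.1, 5.74 and 9.09 CPM by day and 3.81, 4.42, 5.4 and 4.28 CPM by night in Bmal1 KO AL and 9.44, 13.4, 10.4 and 15.5 CPM by day and 9.22, 7.08, 4.79 and 7.08 CPM by night in Cry KO AL. The groups were apart in both lines, ZT8 was the highest of the 4 times in every series, and the average log2 fold was -0.82 ± 0.16 (adjusted p = 0.0311, edgeR). Of the 16 ATF4 genes tested Chac1 was the other one called (-2.21 ± 0.38 in Bmal1 KO AL and -0.66 ± 0.35 in Cry KO AL), against 0.877% of all genes called lower. In that list 6 members were higher and 7 lower at night in both lines (37.5% and 43.8%, against 28.8% and 32% of all genes). Its medians were 0.0342 in Bmal1 KO AL and -0.269 in Cry KO AL. Irs2, the insulin receptor substrate that FOXO1 induces in fasting, read 45.7, 66.2, 37.2 and 53.8 CPM by day and 41.9, 34.8, 14.4 and 25.6 CPM by night in Bmal1 KO AL and 28, 27.7, 19.6 and 27.3 CPM by day and 12.8, 21.8, 13.1 and 19.1 CPM by night in Cry KO AL. Both lines overlapped between day and night, while each series was lower at night, and the average log2 fold was -0.77 ± 0.16; it was called in neither WT AL (-0.37 ± 0.31) nor KO RF (-0.72 ± 0.31). It was the 1 member called of 15 insulin and FOXO genes, against 0.877% of all genes called lower. The list's medians were -0.197 in Bmal1 KO AL and 0.0969 in Cry KO AL. Igfbp1, another fasting gene of the list, had -2.85 ± 0.73 and -0.95 ± 0.67 (adjusted p of the average = 0.0691, edgeR). Atg2a, a lipid transfer protein of autophagosomes, was the 1 called of 13 autophagy genes (-0.42 ± 0.07), against 0.877% of all genes called lower. Of the 13, 8 had lower levels at night in both lines and 2 higher (61.5% and 15.4%, against 32% and 28.8% of all genes).

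The following genes were picked after their values were seen. Odc1, the first enzyme of polyamine synthesis, and Azin1, which protects it from degradation, were higher at night (0.59 ± 0.13 and 0.45 ± 0.08), and in Azin2 the fold was -1.29 from levels of at most 1.22 CPM. Polr3g, a subunit of RNA polymerase III, was higher (0.46 ± 0.07), and Maf1 and Brf1, the repressor and an initiation factor of that polymerase, were lower (-0.37 ± 0.07 and -0.33 ± 0.07).

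**Figure D4:**
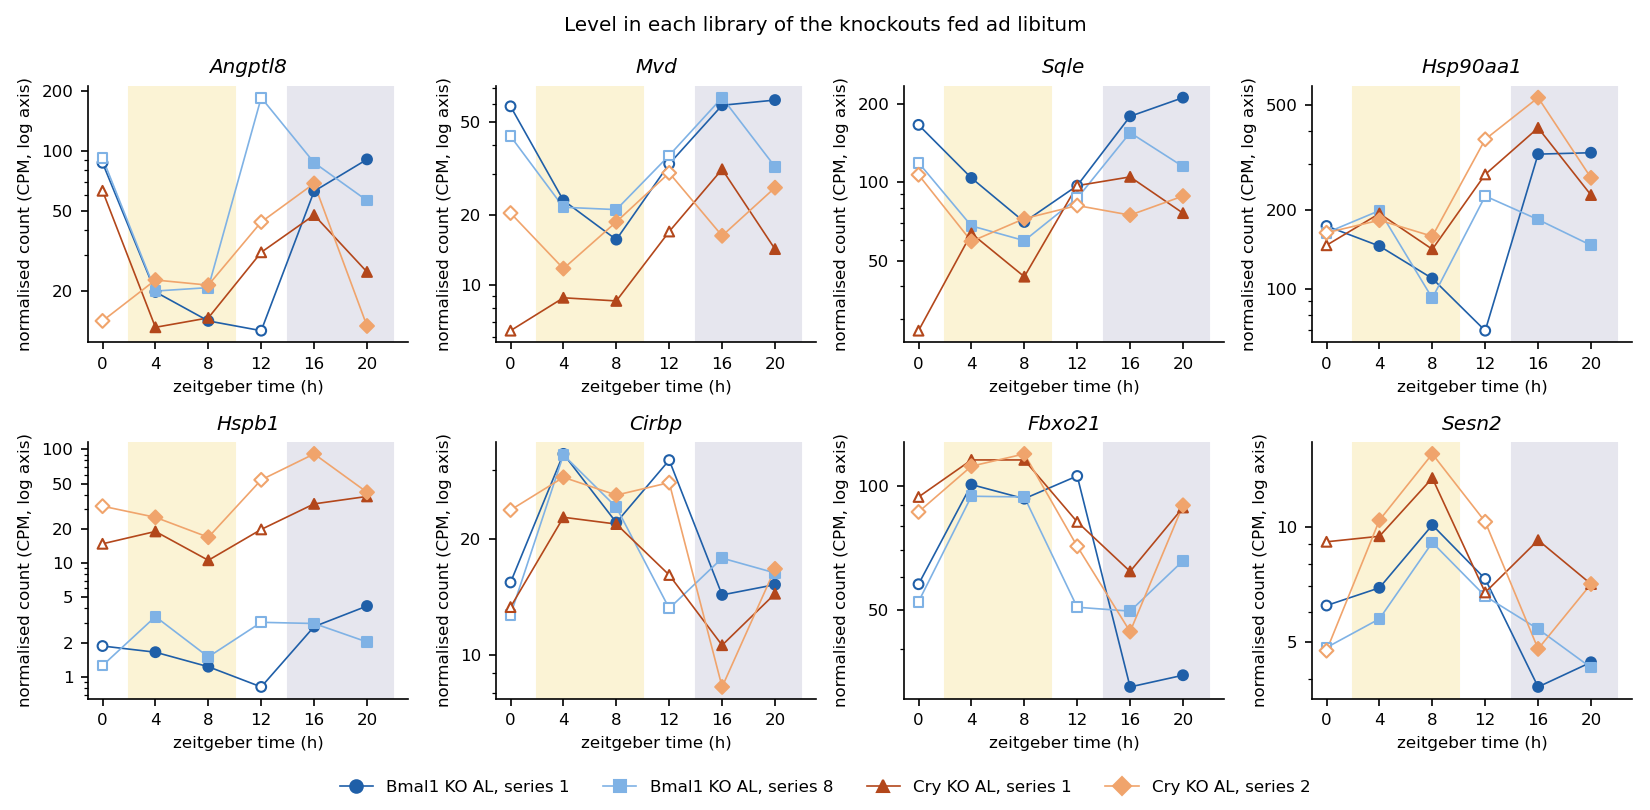
Level (CPM, log axis) of 8 genes against zeitgeber time in each of the 24 libraries of knockouts fed AL; lines join the libraries of a replicate series, filled points on yellow (day) and grey (night) entered the comparison and open points (ZT0, ZT12) did not. Cirbp lies at 21.8 to 33.1 CPM by day and 8.27 to 17.8 CPM by night, and Angptl8 at 13.3 CPM in Cry KO AL series 2 at ZT20.

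Of 19 core clock genes 1 was called, higher at night, against 0.554% of all genes. It was Per2, a clock repressor that also responds to temperature and feeding signals. It read 19.5, 23.6, 18.8 and 28 CPM by day and 61.2, 46.7, 38.6 and 34.4 CPM by night in Bmal1 KO AL and 74.9, 66.3, 50 and 41.6 CPM by day and 85.7, 84.4, 69.3 and 37.9 CPM by night in Cry KO AL. The groups were apart in Bmal1 KO AL, where the log2 fold was 1.0 ± 0.18 (adjusted p = 0.048, edgeR), and overlapped in Cry KO AL, where it was 0.26 ± 0.18; the difference between lines was not called (adjusted p = 0.716, edgeR). In WT AL the Per2 fold was 1.99 ± 0.33 and in KO RF 1.06 ± 0.33. Nr1d1, which encodes REV-ERB alpha, had -0.54 and 0.30 in the 2 knockouts against -4.53 ± 0.39 in WT AL. The difference of KO AL from WT AL was called for 3 core clock genes, 1 with a positive and 2 with a negative difference (all genes 0.26% and 0.361%). Among them were Nr1d1 and Cry1 (4.41 ± 0.55 and -2.01 ± 0.28). Cry1 is deleted in the Cry line, so the KO side of its difference averages the Bmal1 knockouts with knockouts of the gene itself. Dbp had -0.12 and -0.14 against -3.35, a difference that was not called (adjusted p = 0.153, edgeR). Cry2 was lower at night in all 4 series, at 56.8 ± 5.48 and 47 ± 3.07 CPM in Bmal1 KO AL (mean ± SD, n = 4), and was not called on the average (adjusted p = 0.0691, edgeR). Like Cry1, it is deleted in the Cry line, so its average and its sign by series include knockouts of the gene itself.

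Other lists had few or no called members. The unfolded protein response had 0 of 21 called, while 18 were higher at night in both lines (all genes 28.8%) and the medians were 0.364 and 0.367. By series the median was 0.715 in Bmal1 KO AL series 1 and -0.0737 in series 8, and 0.409 and 0.235 in Cry KO AL series 1 and 2. In KO RF 18 of the 21 were called higher, against 9.61% of all genes. Hspa5 (BiP), its main chaperone, read 2580 CPM in Bmal1 KO AL series 1 at ZT16, 1390 and 1530 CPM in the Cry KO AL libraries of that time, and 489 to 989 CPM in the other 13. Cytosolic ribosomal protein genes were higher in both lines for 29 of 31 (all genes 28.8%), with medians of 0.118 and 0.055 and 0 called. The median was 0.222 in Cry KO AL series 1 and -0.117 in its series 2. Gluconeogenesis (12 genes), bile acid synthesis (14), glucocorticoid response (15), fatty acid oxidation and ketogenesis (25), acute phase (15), interferon response (13) and cell cycle (18) had 0 called on the average. Pck1, the gluconeogenic carboxykinase, had an average log2 fold of -0.61 ± 0.39 and Cyp7a1, the rate-limiting enzyme of bile acid synthesis, 0.35 ± 0.28, with values of 80.5 to 709 CPM over the Bmal1 KO AL libraries. The 5 adipocyte markers summed to 0.783 to 2.28 CPM by day and 1.21 to 6.69 CPM by night in the Bmal1 knockouts and to 1.41 to 6.07 CPM by day and 1.1 to 16.7 CPM by night in the Cry knockouts. Of these markers Plin1 was called, with at most 1.12 CPM, in Bmal1 KO AL series 8 at ZT16, and it was at 0 in 10 of the 16 libraries.

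**Figure D5:**
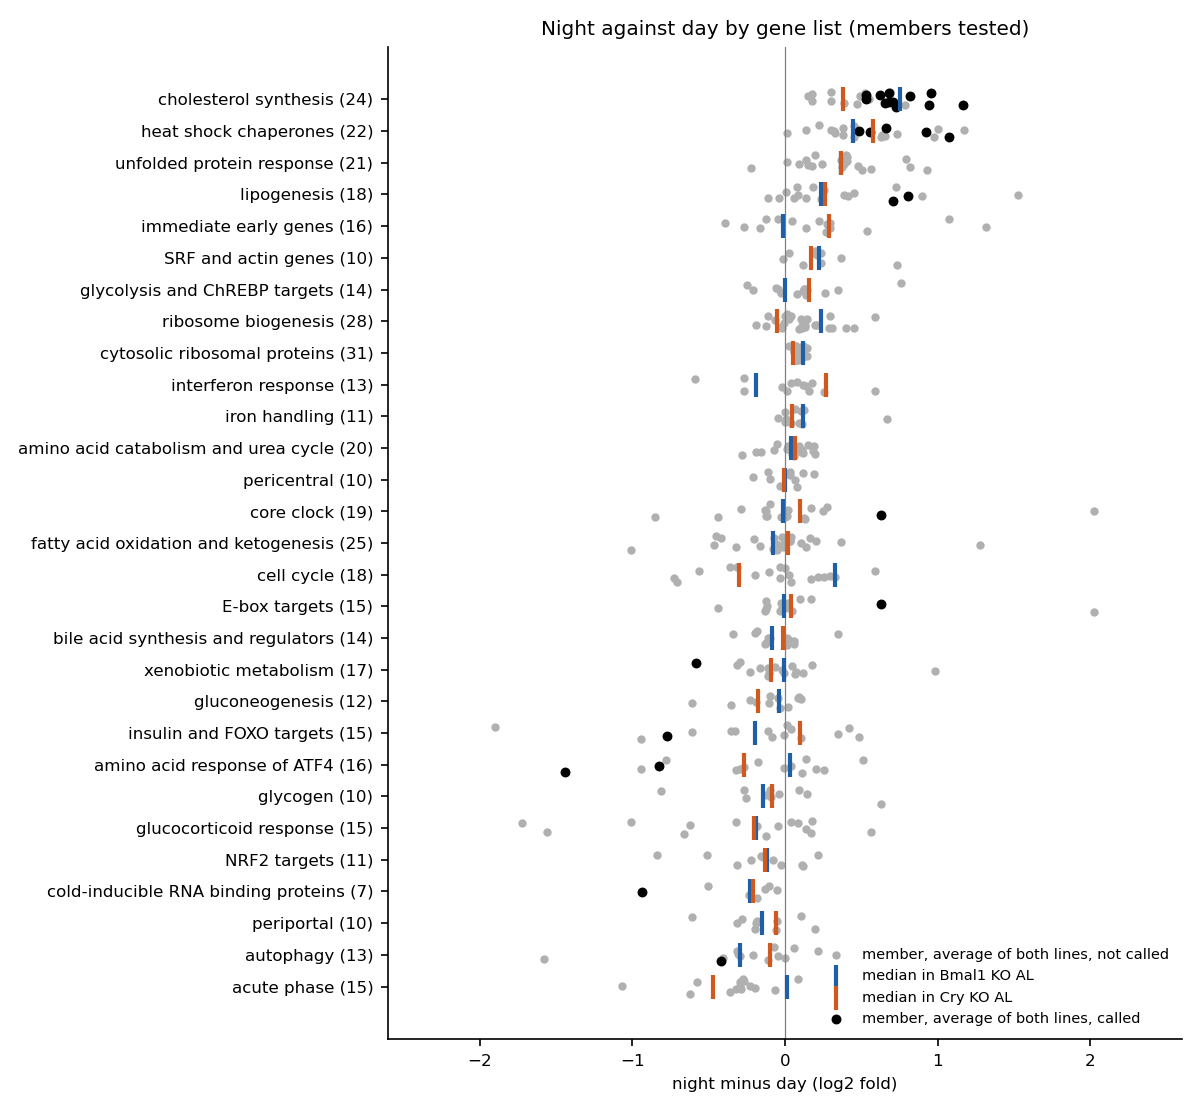
Night minus day log2 fold (x axis) of the tested members of each gene list, whose number is in brackets; grey points are members not called and black points members called on the average of both lines, and the blue and orange marks are the list's median in Bmal1 KO AL and Cry KO AL. Cholesterol synthesis holds 12 black points, heat shock chaperones 5 and the cytosolic ribosomal proteins 0.

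Over all 6 times, which include the libraries that chose the genes, the time of the highest level is given as a description. Among the 78 genes, the mean of the series was highest at ZT20 for 38, at ZT0 for 20 and at ZT16 for 19 in Bmal1 KO AL, and at ZT16 for 65 and ZT20 for 8 in Cry KO AL. The 123 were highest at ZT8 for 53, ZT4 for 40 and ZT12 for 28 in Bmal1 KO AL and at ZT8 for 57 and ZT4 for 54 in Cry KO AL. ZT20 and ZT16 were compared directly in a fit of the 16 libraries of the comparison. Of 15669 genes 0 were called in Bmal1 KO AL (0% above and 0% below) and 4 in Cry KO AL (0.0191% above and 0.00638% below). For a difference between the lines 0 were called (0%, with 638 at an unadjusted p under 0.05). The median of ZT20 minus ZT16 over the 78 genes was 0.0392 in Bmal1 KO AL and -0.249 in Cry KO AL, against -0.0025 and -0.0444 over all genes, from libraries that also chose the 78. In the ZT0 and ZT12 libraries, which had no part in the choice, ZT12 was above ZT0 in both lines for 8 of the 78 genes (10.3%) and below it for 30 (38.5%), against 27.9% and 27.8% of all genes, and for the 123 it was above in 48 (39%) and below in 13 (10.6%). The median log2 ratio of ZT12 to ZT0 differed in sign between the lines. Over the 78 genes it was -0.285 in Bmal1 KO AL and 0.12 in Cry KO AL, and over the 123 it was 0.262 and -0.0583. Counting ZT0 with the day and ZT12 with the night left 1 gene called.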

How the data were processed

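Poly(A) RNA of mouse liver was sequenced with a stranded kit, per the labels' protocols. The authors deposited 1 table of whole-number read counts per gene for 96 libraries. STAR 2.4.0i and mm10 are named in the submitters' processing notes; the counting program is not given in the sources used here. Of 55421 identifiers, 267 had no symbol (0.0449% of counts) in GENCODE M21.

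Libraries were grouped by their labels. Genes passing filterByExpr (count 10, total 15) were kept, 15167 with 99.93% of counts in the 16 libraries and 16904 in the 64. Counts were scaled by TMM and tested with edgeR 4.0.16 (quasi-likelihood, Benjamini-Hochberg, R 4.3.3), with a night effect for each line, 4 series blocks and 10 residual degrees of freedom. SE is the absolute log2 fold over the square root of F. Levels are CPM scaled by TMM over all 96 libraries; they are not per length, so levels are not compared between genes. Sign by series used the mean of log2(CPM + 0.5). The wild types and night-fed knockouts were read from 1 fit of 64 libraries. ZT20 against ZT16 came from 1 fit of the 16 libraries, with an effect for each time and line. The scripts were tested on simulated data.

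The series numbers were taken to pair the libraries: deviations of libraries of 1 series correlated at 0.1296 to 0.8368 in every pair, a check on the data, since the labels do not say what a series is. Replicate libraries differed by more than sampling noise. Alternatives were RLE factors, other filters, DESeq2 1.42.0, limma 3.58.1 (voom), no block, other times and leaving out series or libraries.

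Named genes were the 12 highest and 12 lowest by average fold with at least 5 CPM, the core clock genes and from each list at most 4 genes by lowest p; further genes were named after their values were seen, among them list members beyond the 4, Odc1, Azin1, Azin2, Polr3g, Maf1 and Brf1. The members and lists were chosen with earlier results of these data known. No gene was called in both lines, so genes called on the average with 1 sign in all series are described instead, a choice made after that result. Some members of the lists are not reported here by name.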

Additional observations from a re-analysis of the deposited data

Results flagged for a closer look

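Dixon's test, of the gap over the range, flags about 1 group in 20 by chance when values are independent draws from 1 population. The groups here mix times and series and share libraries, so that rate need not hold. Of 100 groups of 4 libraries tested for a single value far from the others, 10 had one. Among the levels of the leading genes these were Onecut1 at 8.59 CPM in Bmal1 KO AL series 8 at ZT16, Mvd at 32.2 CPM in that series at ZT20 and Angptl8 at 14.1 CPM in Bmal1 KO AL series 1 at ZT8. In Cry KO AL series 2 they were Foxa2 at 37.7 CPM and Irs2 at 19.6 CPM at ZT4, Fzd6 at 1.97 CPM at ZT16 and Mid1ip1 at 24.6 CPM at ZT20. Total counts had a low library in 3 groups: 13287386 in the night of Bmal1 KO AL, 9308740 in the day of Cry KO AL (series 2 at ZT4) and 2694543 in its night (series 2 at ZT20).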

How the results depend on the processing

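The counts of genes called depended on the test, the filter and the libraries. With all choices as reported, 22 genes were called in Bmal1 KO AL, 1 in Cry KO AL, 217 on the average, 0 for the line difference, 0 in both lines, 78 higher and 123 lower with 1 sign, 105 for KO AL minus WT AL and 0 for KO RF minus KO AL. RLE factors gave 0 in Cry KO AL. With no filter on low counts these numbers were 696, 649, 1060 and 294, then 98 higher, 58 lower and 25 opposite in both lines, 314 and 364 with 1 sign, 698 and 527. A mean of at least 1 CPM gave 8 in Cry KO AL and 1 for KO RF minus KO AL. DESeq2 gave 244, 272, 776 and 15, 9 higher and 15 lower in both lines, 318 and 347 with 1 sign, 235 and 2. limma-voom gave 44, 22, 332 and 2, 1 higher in both lines, and 129 and 171 with 1 sign. The fit of 64 libraries gave 10, 10 and 120, and 52 and 64 with 1 sign; each line alone gave 7 and 2. With ZT0 and ZT12 included 1, 0 and 1 were called, and 1 and 0 with 1 sign. Chosen after seeing the data, ZT16 against ZT4 gave 0, 0 and 5, with 2 and 3 of 1 sign, and ZT20 against ZT8 gave 51, 28, 107 and 12, with 2 lower and 1 opposite in both lines and 45 and 48 of 1 sign. The cause of these differences was not tested.

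With no replicate block 0 genes were called in Bmal1 KO AL, 0 in Cry KO AL, 19 on the average (7 higher and 11 lower with 1 sign), 32 for KO AL minus WT AL and 1 for KO RF minus KO AL.

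Leaving out a series or a library, the count ran from 0 to 47 in Bmal1 KO AL, 0 to 28 in Cry KO AL, 0 to 286 on the average, 0 to 4 for the line difference, 0 to 1 higher and 0 to 1 lower in both lines, 0 to 124 higher and 0 to 145 lower with 1 sign. KO AL minus WT AL ran from 12, without Cry WT AL series 2, to 126, and KO RF minus KO AL from 0 to 5, the latter without Cry KO RF series 3. Over 24 leading genes and 30 settings, 720 values, 0 changed sign, 434 kept their side of the threshold and 286 lost it. Depth limits low genes in Cry KO AL series 2 at ZT20, where 5 CPM is 13.5 counts.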
